A study of Mus musculus with 32 samples.

Results

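Liver RNA was examined for 9 genes known as oncofetal or liver tumour markers: Afp, Gpc3, H19, Igf2, Igf2bp3, Dlk1, Cd24a, Prom1 and Sox4. They were chosen by gene symbol, and every array probe that the scanner files assign to one of these symbols was taken. This gave 19 of 56605 non-control probes and 9 of 37489 genes or unnamed probes. A probe was kept for testing if 6 or more of the 8 arrays of some group showed it well above background, by the scanner software's own call. By that rule 10 of the 19 probes were kept and 8 of the 9 genes were tested, among 23644 tested in all. Both Igf2 probes were too dim.

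The study compared food-grade titanium dioxide (fg-TiO2, the white food colour E171) with control pellets on 2 diets, and its protocol names the diet as a possible aggravating factor. The animals were male C57BL/6J mice of a first generation (F1), sampled at 21 weeks of age, 8 per group and 1 single-colour Agilent array per liver. The mothers (F0) had received control or E171 pellets from 40 days before mating, and their offspring stayed on the same pellets after birth, which for E171 aimed at a daily 10 mg per kg body weight. The normal diet control and normal diet E171 groups ate the normal diet throughout. The Western diet control and Western diet E171 groups were moved to the Western diet at 5 weeks of age and kept on it for 16 weeks. The group labels call this diet Western, and the protocol calls it high in fat. Litters are not named in the labels, so the tests count each mouse as a separate sample although some may be littermates.

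Oncofetal genes are active in the fetal liver, are largely silenced after birth and can be switched on again in liver injury or liver tumours. Alpha-fetoprotein (Afp) is the classical serum marker of hepatocellular carcinoma. H19 and Igf2 are neighbouring imprinted genes that share an enhancer and are expressed from opposite parental chromosomes, and both are abundant before birth. Bile duct cells and liver progenitor cells carry some of the same markers, among them Cd24a, Prom1 and Sox4, so a rise in whole liver need not come from hepatocytes. In whole-liver RNA, more cells of a type and more RNA per cell cannot be told apart.

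All 32 arrays had 32164 to 37261 probes well above background, 0 saturated probes and pairwise correlations of at least 0.9718. The 4 slides each held 2 mice of every group. Markers of hepatocytes, the main cell of the labelled tissue, were measured for 11 of 11 genes. Levels below are signals as a percentage of the 75th percentile of the same array. They can be compared between groups for 1 probe, and not between genes. Differences are on the log2 scale, with the standard error (SE) and a 95% interval (95% CI), from limma fitted to all 32 arrays. Adjusted p values come from its two-sided moderated test with Benjamini-Hochberg adjustment over all 23644 genes. A gene is said to have risen or fallen when its adjusted p was under 0.05. Over all genes the median difference between the diets was -0.1 in controls and -0.1 in E171 mice.

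H19 showed the largest difference between the diets of the 8 tested genes (Igf2 was not tested). It was read by a pair of probes whose sequences are shown because their signals lay in different ranges. Both lie on the minus strand of chromosome 7 in the mm9 build, probe 1 at chr7:149761492-149761551, inside a non-coding RefSeq transcript of H19 from base 2171 of that transcript, and probe 2 at chr7:149762173-149762232. Each holds 60 bases, with a GC content of 45.0% in probe 1 and 55.0% in probe 2. No part is in capitals.
H19 probe 1: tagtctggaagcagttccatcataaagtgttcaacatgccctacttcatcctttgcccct
H19 probe 2: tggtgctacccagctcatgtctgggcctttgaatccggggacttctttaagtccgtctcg

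On the Western diet 4 of the 8 tested genes rose in controls (H19, Sox4, Cd24a and Afp) and 0 fell. The same 4 rose in E171 mice, and again 0 fell. Over all genes 47.3% passed in controls, 18.5% higher and 28.8% lower, and 53.2% passed in E171 mice, 22.2% higher and 31% lower. The share of members that passed in either direction, 4 of 8, was thus near that of all genes. The median difference of the 8 members was 0.28 in controls and 0.49 in E171 mice.

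**Figure D1:**
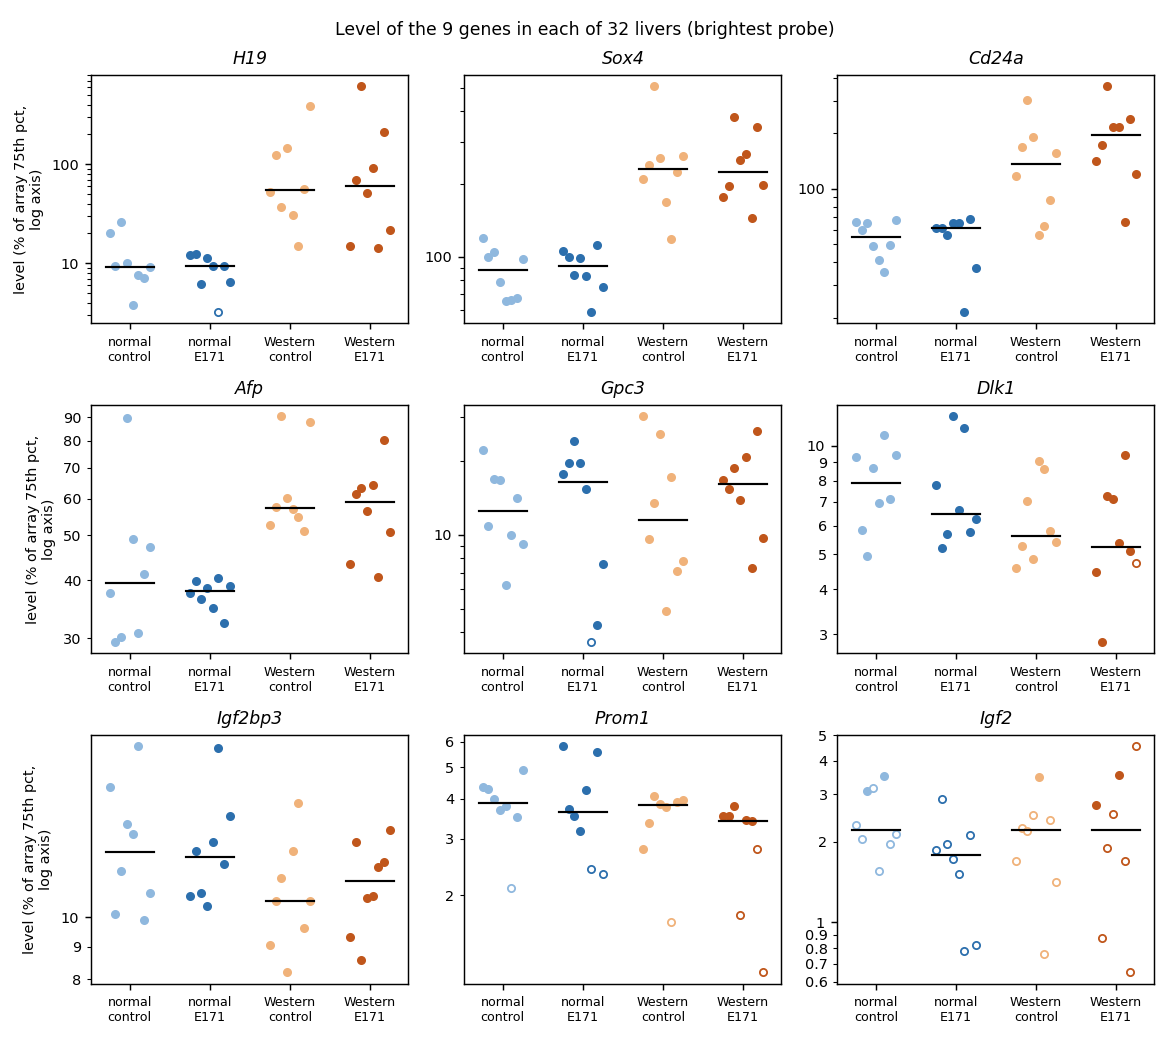
Level of each gene in each of the 32 livers, as a percentage of the array's 75th percentile on a log axis, for the probe that stands for the gene. Points are mice, filled where the probe was well above background, and the black line is the group median. H19, Sox4, Cd24a and Afp sit higher in the Western diet groups, and Igf2 is mostly open points.

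H19, a maternally expressed non-coding RNA that also carries the precursor of the microRNA miR-675, ranged in normal diet controls from 3.77% through a median of 9.23% to 25.8%. In normal diet E171 mice it ranged from 3.22% through 9.37% to 12.5%. In Western diet controls it reached from 15.0% through 54.3% to 387%, and in Western diet E171 mice from 14.4% through 60.5% to 619%. The Western diet groups were thus high but uneven: mouse 8 of the controls and mouse 3 of the E171 mice stood at the top, while mice 1, 6 and 8 of the E171 group, at 15.0%, 14.4% and 21.9%, lay below the highest normal diet control. The groups overlapped in controls and did not overlap in E171 mice. The difference was 2.74 in controls (SE 0.63, 95% CI 1.45 to 4.03, adjusted p = 0.000758), a 6.68-fold rise. In E171 mice it was 2.92 (SE 0.63, 95% CI 1.62 to 4.21, adjusted p = 0.000312), a 7.56-fold rise. With a normexp background correction, an alternative way of removing array background, the differences were smaller, 1.55 in controls and 1.64 in E171 mice, and both still passed.

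The second H19 probe, shown above, was near background on the normal diet. It was well above background on 1 of 8 arrays of normal diet controls, 0 of 8 of normal diet E171 mice, 5 of 8 of Western diet controls and 4 of 8 of Western diet E171 mice. Its highest level was 3.34% on the normal diet, 31.0% in Western diet controls and 38.0% in Western diet E171 mice. In E171 mice the Western diet mean on the log2 scale lay 1.37-fold above the background limit of the normal diet group. That mean takes in Western diet arrays that were not well above background themselves, so 1.37-fold is not a firm bound. The ranges also overlapped, with a lowest Western diet E171 level of 1.26% and a highest normal diet E171 level of 2.22%. It failed the filter and was not tested.

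Igf2, the fetal growth factor gene next to H19, was not measurable by comparison. Its first probe (chr7:149837115-149837174, mm9) was well above background on 5 of 32 arrays and its second (chr7:149839661-149839720, mm9) on 1 of 32. The median of the first probe was 2.21% in normal diet controls, 1.79% in normal diet E171 mice, 2.22% in Western diet controls and 2.21% in Western diet E171 mice. Neighbouring groups in that order overlapped widely, and no test was made.

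Sox4 encodes a transcription factor of progenitor cells and of many tumours. Its first probe (chr13:29040826-29040885, mm9) ranged from 65.4% through 88.3% to 119% in normal diet controls and from 59.0% through 91.3% to 112% in normal diet E171 mice. Western diet controls ranged from 118% through 232% to 511%, and Western diet E171 mice from 145% through 225% to 380%. The ranges touched in controls, where the lowest Western diet mouse lay just below the highest normal diet mouse, and were apart in E171 mice. Sox4 rose by 1.43 in controls (SE 0.22, 95% CI 0.98 to 1.87, adjusted p = 3.52e-06), which is 2.69-fold. In E171 mice it rose by 1.41 (SE 0.22, 95% CI 0.96 to 1.85, adjusted p = 3.39e-06), which is 2.65-fold. A second kept probe (chr13:29042856-29042915, mm9) gave 1.3 and 1.31.

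Cd24a encodes a small surface glycoprotein of progenitor, bile duct, blood and tumour cells. Its first probe (chr10:43303932-43303991, mm9) ranged from 35.6% through 54.6% to 67.8% in normal diet controls and from 21.5% through 61.4% to 68.8% in normal diet E171 mice. In Western diet controls it ranged from 56.0% through 137% to 305%, and in Western diet E171 mice from 66.2% through 195% to 362%. Most Western diet mice lay above the normal diet range, but the lowest in each group fell within it. Cd24a rose by 1.23 in controls (SE 0.31, 95% CI 0.58 to 1.87, adjusted p = 0.00202), or 2.34-fold, and by 1.75 in E171 mice (SE 0.31, 95% CI 1.11 to 2.39, adjusted p = 3.08e-05), or 3.36-fold. Its second kept probe (chr10:43303706-43303765, mm9) gave 1.31 and 1.89.

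Afp, the fetal counterpart of serum albumin, was read by 1 probe (chr5:90937781-90937840, mm9). It ranged from 29.4% through 39.4% to 89.4% in normal diet controls and from 32.4% through 38.0% to 40.4% in normal diet E171 mice. On the Western diet it ranged from 51.1% through 57.3% to 90.5% in controls and from 40.7% through 58.9% to 80.4% in E171 mice. Among normal diet controls mouse 4, at 89.4%, stood apart from the next mouse at 49.1%, and it alone overlapped the Western diet controls. In E171 mice the ranges did not overlap, by a narrow margin. Afp rose by 0.59 in controls (SE 0.17, 95% CI 0.24 to 0.94, adjusted p = 0.00575) and by 0.6 in E171 mice (SE 0.17, 95% CI 0.24 to 0.95, adjusted p = 0.00466), which is 1.51-fold in each. The rise in controls was 0.75 without mouse 4 of the normal diet controls and 0.52 (adjusted p = 0.0172) without mouse 3 of the Western diet controls. With normexp both rises were 0.39 and still passed.

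The groups did not overlap for 0 of the 8 tested members in controls and for 3 of 8 in E171 mice (H19, Sox4 and Afp), against 9.96% (4.6% higher) and 18% (9.14% higher) of all genes in the same comparisons. All 4 risen genes were higher on the Western diet on each of the 4 slides, in controls and in E171 mice. The smallest difference within a slide was 0.16 for Afp, 1.17 for H19, 0.3 for Cd24a and 0.82 for Sox4 in controls.

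**Figure D2:**
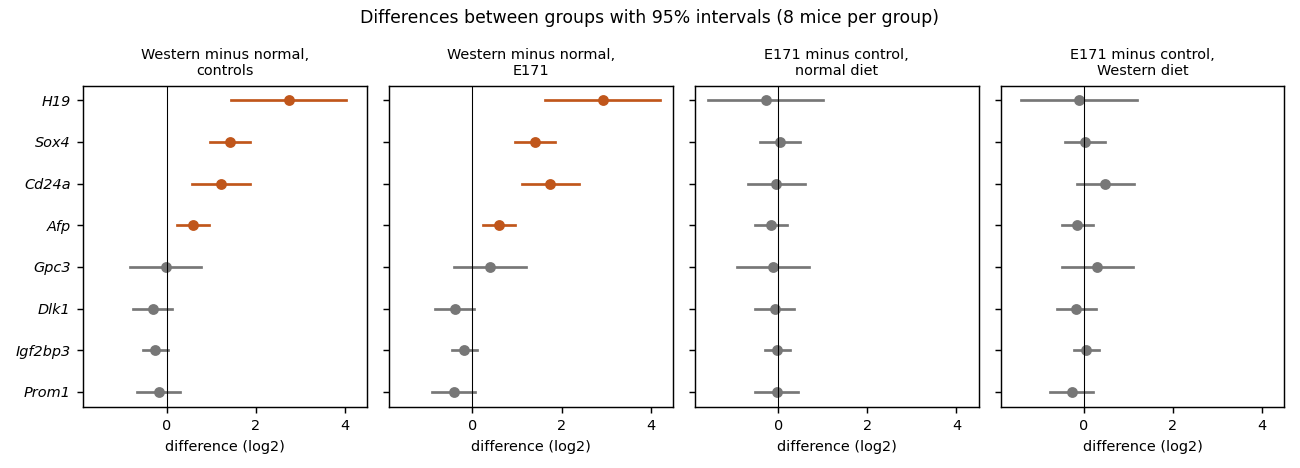
Difference of each tested gene in 4 comparisons on the log2 scale, points with 95% intervals, 8 mice per group. Orange marks an adjusted p under 0.05. H19, Sox4, Cd24a and Afp lie above 0 in both diet comparisons, and every E171 interval crosses 0.

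The 4 other tested genes did not pass in either diet comparison. Gpc3 encodes glypican-3, a membrane proteoglycan and histological marker of hepatocellular carcinoma. Its first probe (chrX:49625627-49625686, mm9) ranged from 6.25% through 12.5% to 22.2% in normal diet controls, from 3.65% through 16.5% to 24.1% in normal diet E171 mice, from 4.89% through 11.5% to 30.4% in Western diet controls and from 7.30% through 16.1% to 26.5% in Western diet E171 mice. The 4 ranges lay over one another. The difference between the diets was -0.024 in controls (95% CI -0.83 to 0.78, adjusted p = 0.965) and 0.39 in E171 mice (95% CI -0.41 to 1.2, adjusted p = 0.408). These intervals do not exclude a 1.5-fold difference in either direction in controls. A second Gpc3 probe stood above background on 0 of 32 arrays.

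Dlk1, a membrane protein of fetal hepatoblasts and an imprinted gene, had medians of 7.91%, 6.46%, 5.62% and 5.23% in normal diet controls, E171 mice on the normal diet, Western diet controls and E171 mice on the Western diet on its first probe (chr12:110698428-110698487, mm9). The single mice ran from 4.93% to 10.7%, 5.19% to 12.1%, 4.59% to 9.10% and 2.85% to 9.46% in the same order, so neighbouring groups overlapped. The difference was -0.31 in controls (95% CI -0.75 to 0.12, adjusted p = 0.228) and -0.4 in E171 mice (95% CI -0.84 to 0.031, adjusted p = 0.11). Without mouse 6 of the Western diet E171 group the latter was -0.52 and passed (adjusted p = 0.0381). Its other probe stood above background on 10 of 32 arrays. The median of that probe was 2.29% in normal diet controls and 3.13% in Western diet controls, the opposite direction to the first probe. In E171 mice it was 2.79% on the normal diet and 2.67% on the Western diet.

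Igf2bp3 encodes a fetal RNA-binding protein that binds Igf2 mRNA. Its probe 1 (chr6:49037149-49037208, mm9) was well above background on 32 of 32 arrays. Medians were 12.6%, 12.4%, 10.6% and 11.4% in normal diet controls, E171 mice on the normal diet, Western diet controls and E171 mice on the Western diet. Single mice ran from 9.90% to 18.5%, 10.4% to 18.4%, 8.20% to 15.1% and 8.57% to 13.7% in that order, so neighbouring groups overlapped. The difference was -0.25 in controls (95% CI -0.53 to 0.027, adjusted p = 0.13) and -0.18 in E171 mice (95% CI -0.46 to 0.097, adjusted p = 0.264). Without mouse 6 of the Western diet controls the former was -0.32 and passed (adjusted p = 0.0488). The other 2 probes of Igf2bp3 were well above background on 1 and 0 of 32 arrays, so the probes disagree on whether its RNA was detected, and the value of probe 1 has no second probe to set beside it.

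Prom1 encodes prominin-1 (CD133), a surface marker of progenitor and bile duct cells. Its kept probe, made for an Ensembl transcript and lying between 44491120 and 44491275 on chromosome 5 (mm9), was well above background on 25 of 32 arrays. Medians were 3.88%, 3.62%, 3.81% and 3.41% in normal diet controls, E171 mice on the normal diet, Western diet controls and E171 mice on the Western diet. Single mice ran from 2.10% to 4.91%, 2.33% to 5.82%, 1.65% to 4.06% and 1.15% to 3.80%, so the groups overlapped. The difference was -0.18 in controls (95% CI -0.66 to 0.3, adjusted p = 0.55) and -0.42 in E171 mice (95% CI -0.9 to 0.059, adjusted p = 0.13). The other 2 Prom1 probes, made for RefSeq transcripts, were well above background on 2 and 1 of 32 arrays.

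E171 changed 0 of the 8 tested genes on the normal diet, 0 of 8 on the Western diet and 0 of 8 in the mean of both diets by limma's adjusted p. At an unadjusted p under 0.05 the count was also 0 in each. Over all genes 0% passed on the normal diet, 0.381% on the Western diet and 0.368% in the mean of both, and at an unadjusted p under 0.05 there were 958, 2821 and 2600 genes. The comparisons of E171 with control use the same control mice as the comparisons of the diets in controls.

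The intervals show what these groups of 8 can bound. On the Western diet the difference between E171 and control was -0.1 for H19 (95% CI -1.4 to 1.19), 0.025 for Sox4 (95% CI -0.42 to 0.47), 0.48 for Cd24a (95% CI -0.16 to 1.12) and -0.15 for Afp (95% CI -0.5 to 0.2). The Cd24a value was the largest of the 8 on this diet (unadjusted p = 0.136, adjusted p = 0.58), and its E171 mice were higher on 3 of 4 slides. On the normal diet the differences were -0.28 for H19 (95% CI -1.58 to 1.01), 0.045 for Sox4 (95% CI -0.4 to 0.49), -0.043 for Cd24a (95% CI -0.68 to 0.6) and -0.15 for Afp (95% CI -0.51 to 0.2). For H19 a change of 2-fold in either direction thus lies within the interval on both diets. Among Gpc3, Dlk1, Igf2bp3 and Prom1 the differences ran from -0.11 to -0.015 on the normal diet and from -0.27 to 0.3 on the Western diet.

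The effect of the diet on these genes was not shown to depend on E171. The interaction passed for 0 of the 8 genes (lowest unadjusted p = 0.248, adjusted p = 0.999) and for 0% of all genes, of which 1222 had an unadjusted p under 0.05. It was 0.18 for H19 (95% CI -1.65 to 2.01), -0.02 for Sox4 (95% CI -0.65 to 0.6), 0.52 for Cd24a (95% CI -0.38 to 1.43) and 0.0044 for Afp (95% CI -0.49 to 0.5).

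Within the Western diet some pairs of the 4 risen genes varied together from mouse to mouse. Over the 16 Western diet mice, with the mean of each group removed, 5 of 28 pairs of genes passed a two-sided permutation test with Benjamini-Hochberg adjustment over the 28 pairs. The strongest pair was Cd24a and Sox4 (Pearson r = 0.906, Spearman rho = 0.9, permutation p = 1e-05 for r, the smallest that 100000 permutations can give, and 2e-05 for rho, adjusted p = 0.00028). Mouse 3 of the controls had the highest Sox4 (511%) and Cd24a (305%) of its group, and mouse 3 of the E171 group had the highest Sox4 (380%) and Cd24a (362%) of its own. Afp followed Sox4 (r = 0.771, rho = 0.815, permutation p = 0.00042 and 0.00048, adjusted p = 0.00588) and Cd24a (r = 0.723, rho = 0.779, permutation p = 0.00251 and 0.00065, adjusted p = 0.0234). H19 followed Cd24a (r = 0.697, rho = 0.765, permutation p = 0.00379 and 0.00124, adjusted p = 0.0265) and Sox4 (r = 0.644, rho = 0.762, permutation p = 0.00829 and 0.00179, adjusted p = 0.0464). Afp and H19 gave r = 0.636 and rho = 0.682, which missed the threshold for r (permutation p = 0.0113, adjusted p = 0.053).

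Without the 2 mice farthest from the median of the first gene, r was 0.917 for Cd24a and Sox4, 0.624 for Afp and Sox4, 0.647 for Afp and Cd24a, 0.662 for H19 and Cd24a, and 0.604 for H19 and Sox4. Within the 8 Western diet controls alone, 1 of these 5 pairs passed an exact two-sided permutation test, Cd24a and Sox4 (r = 0.896, adjusted p = 0.0326). The others missed it there by the same exact test, with adjusted p = 0.321 for Afp and Sox4, 0.39 for Afp and Cd24a, 0.472 for H19 and Cd24a, and 0.52 for H19 and Sox4. Igf2bp3 and Dlk1, which are not among the 5, also passed in these 8 controls (r = 0.888, exact permutation test, adjusted p = 0.0326). For that pair r was -0.349 in the 8 Western diet E171 mice and 0.208 over the 16 mice, and neither passed. Within the 8 Western diet E171 mice alone, 3 of the 5 pairs passed the exact permutation test, Cd24a and Sox4 (r = 0.923), H19 and Sox4 (r = 0.938), and H19 and Cd24a (r = 0.885). Afp and Sox4 (r = 0.854, exact permutation test, adjusted p = 0.0543) and Afp and Cd24a (r = 0.786, adjusted p = 0.0742) missed it. A slide holds 4 Western diet mice, too few for a correlation within it. The H19 and Sox4 pair missed the threshold with normexp (r = 0.572, permutation test, adjusted p = 0.0588) and with the deposited value table (r = 0.605, permutation test, adjusted p = 0.0673).

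In the 16 normal diet mice 7 of 28 pairs passed the same permutation test. Cd24a and Sox4 were again close (r = 0.861, rho = 0.788, permutation p = 3e-05 and 0.0004, adjusted p = 0.00084), as were H19 and Sox4 (r = 0.843, rho = 0.8, permutation p = 7e-05 and 0.00042, adjusted p = 0.00098). Prom1, whose difference between the diets did not pass, followed Cd24a (r = 0.775, rho = 0.738, permutation p = 0.00014 and 0.00242, adjusted p = 0.00131) and Sox4 (r = 0.729, rho = 0.774, permutation p = 0.00054 and 0.00039, adjusted p = 0.00378). Without the 2 mice farthest from the median of the first gene, these 2 values were 0.677 and 0.698. The Prom1 probe was dim, well above background on 7 of 8 normal diet controls and 6 of 8 normal diet E171 mice. On the Western diet r for Cd24a and Prom1 was 0.305, and -0.451 with normexp. No alternative was run for the normal diet pairs. Igf2bp3 and Cd24a ran in opposite directions (r = -0.672), but r was -0.277 without 2 mice, so that relation rests on them. Afp and Sox4 gave r = -0.267 and rho = -0.476 on the normal diet (permutation p = 0.408 and 0.092, adjusted p = 0.543). Whether this pair differed between the diets was not tested.

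**Figure D3:**
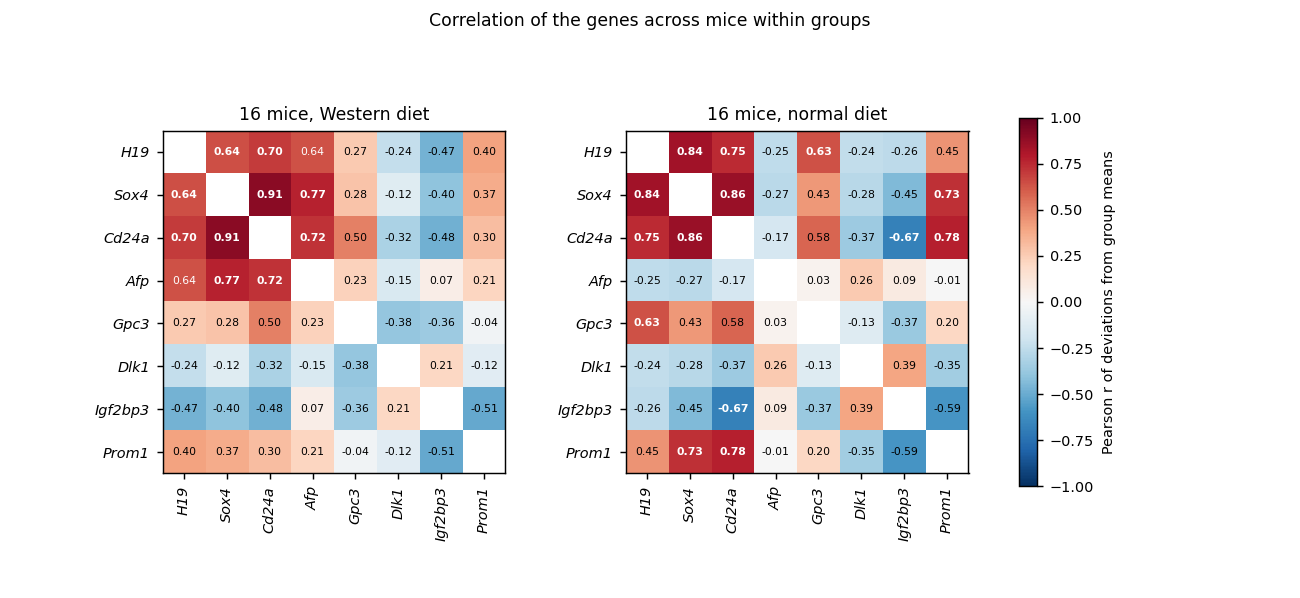
Pearson correlation of each pair of tested genes over the 16 Western diet mice (left) and the 16 normal diet mice (right), after the mean of each group was removed. Bold marks a permutation test with adjusted p under 0.05. H19, Sox4 and Cd24a form a block of positive values on both diets, and Afp joins it on the Western diet.

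Across all 32 arrays, the genes whose deviations from the group means were most like those of each member were sought among 18231 genes with a symbol. These are descriptions, and all points share the same libraries. Among the genes most like Cd24a were Tesc, which encodes a calcium-binding protein (r = 0.951), and Scara3, a scavenger receptor gene (r = 0.95). Sox4 was most like Tmem132a (r = 0.94), Mtcl1, a microtubule crosslinker (r = 0.938), and Cldn7, a tight junction protein of epithelia (r = 0.938). H19 was most like an uncharacterised locus, LOC102637129 (r = 0.824), Mfge8, a secreted bridge to dying cells (r = 0.82), and Cd63, a tetraspanin of late endosomes (r = 0.82). Afp was most like Akr1c18, a steroid dehydrogenase (r = 0.808), Niban2 (r = 0.801) and Mboat1, an acyltransferase (r = 0.794). 

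Of these genes Tesc (1.07, adjusted p = 0.00647), Scara3 (0.81, adjusted p = 0.0469), Tmem132a (1.03, adjusted p = 8.47e-05), Cldn7 (0.69, adjusted p = 0.0218), Cd63 (1.92, adjusted p = 1.02e-06), Mfge8 (0.94, adjusted p = 0.00014), Akr1c18 (1.13, adjusted p = 0.0016) and Mboat1 (0.8, adjusted p = 0.00686) rose in Western diet controls in the limma fit. LOC102637129 rose by 2.66. Mtcl1 differed by 0.54 (adjusted p = 0.144) and Niban2 by 0.39 (adjusted p = 0.0609).

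The genes whose diet differences did not pass had other neighbours. Gpc3 was most like Prss12, a secreted protease (r = 0.94), Rspo1, an enhancer of Wnt signals (r = 0.931), and Msln, mesothelin of the mesothelium that covers the liver (r = 0.927). None of the 3 passed in controls: Prss12 differed by -0.061, Rspo1 by -0.57 and Msln by -0.66. Dlk1 was most like the transcripts Gm10463 (r = 0.806), D430040D24Rik (r = 0.726) and 9430078K24Rik (r = 0.721). Igf2bp3 was most like Nsa2, a ribosome assembly factor (r = 0.721), Cpne5 (r = 0.719) and Abraxas2 (r = 0.716). Among the genes most like Prom1 were Dhx38, a splicing helicase gene (r = 0.694), and Cdca4 (r = 0.69).

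Of the transcription factors that act on Afp and H19 after birth, 12 of 18 were lower on the Western diet in controls. Zhx2 and Zbtb20 are the best known repressors of Afp in the adult mouse liver, and the HNF4 and FOXA factors act on its promoter and enhancers. In that comparison 0 rose, with a median difference of -0.28 against -0.1 over all genes and a share of 28.8% of all genes that fell. In E171 mice 2 rose and 10 fell, against 22.2% and 31% of all genes. Among the 12 in controls, Cebpa (-0.24, adjusted p = 0.0435) and Nr3c1 (-0.19, adjusted p = 0.0445) passed narrowly in the limma fit. The balance of rises and falls over all genes also depended on the scaling. In controls 39.2% of the calls were rises, against 54.4% with the deposited values. Zhx2 fell by 0.52 in controls (SE 0.12, adjusted p = 0.000975) and by 0.52 in E171 mice (adjusted p = 0.000836). Zbtb20 did not pass (-0.044, adjusted p = 0.799 in controls and -0.17, adjusted p = 0.26 in E171 mice).

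Among the forkhead factors Foxa3 fell by 0.66 in controls (adjusted p = 0.00883) and by 1.11 in E171 mice (adjusted p = 4.22e-05). Foxa2 fell by 0.73 (adjusted p = 0.012) and 0.59 (adjusted p = 0.0368), the latter call being lost with quantile scaling, scaling to probes detected on all arrays, the deposited values and the replicate block. Foxa1 fell by 0.49 in controls (adjusted p = 0.0471), a call lost under 7 of 9 alternatives, and did not pass in E171 mice (-0.27, adjusted p = 0.264). Whether the fall of these factors bears on Afp or H19 was not tested.

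H19 belongs to a network of imprinted genes that are active in fetal growth and fall together after birth. Of 12 tested genes of this network 5 rose and 0 fell in controls, and 6 rose and 1 fell in E171 mice. Medians were 0.22 and 0.19. Of all genes 47.3% passed in controls (18.5% higher) and 53.2% in E171 mice (22.2% higher). The count that passed in either direction was thus near the share of all genes. Mest, a hydrolase-like growth gene, rose by 1.18 in controls (adjusted p = 1.41e-06) and 1.26 in E171 mice (adjusted p = 3.5e-07). Cdkn1c, a cell cycle inhibitor in the imprinted domain next to H19 and Igf2, rose by 0.67 (adjusted p = 0.000107) and 0.75 (adjusted p = 2.05e-05). Dcn, the matrix proteoglycan decorin, rose by 0.49 (adjusted p = 0.000111) and 0.53 (adjusted p = 3.02e-05). Plagl1, a zinc finger activator of the network, rose by 1.22 (adjusted p = 2.2e-05) and 1.32 (adjusted p = 5.6e-06) on its brightest probe, but its second probe gave the opposite sign in both comparisons.

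Receptors and binding proteins of IGF2 were listed with the related genes Igf1, Irs1 and Irs2, and the list moved in both directions. Of 13 tested, 4 rose and 5 fell in controls, and 5 rose and 5 fell in E171 mice. Igf1 and Irs2 were among those that fell in both comparisons, and Irs1 was among them in E171 mice. Over all genes 18.5% rose and 28.8% fell in controls, and 22.2% and 31% in E171 mice. Igfbp2, a secreted IGF-binding protein, fell by 1.1 in controls (adjusted p = 4.87e-05) and by 1.22 in E171 mice (adjusted p = 9.46e-06). Igf1r, the receptor that signals for IGF1 and IGF2, rose by 0.53 (adjusted p = 0.000118) and 0.48 (adjusted p = 0.00036). Igfbp7 rose by 0.71 (adjusted p = 2.49e-05) and 0.71 (adjusted p = 1.9e-05). Irs2, a docking protein of the insulin receptor, fell by 0.75 (adjusted p = 0.00972) and 0.74 (adjusted p = 0.0098).

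Paralogues of the 9 genes did not share one direction. Of 11 tested, 3 rose and 7 fell in controls, and 3 rose and 5 fell in E171 mice. The shares of all genes were 18.5% higher and 28.8% lower in controls, and 22.2% and 31% in E171 mice. The glypicans divided: Gpc1 rose by 1.74 in controls (SE 0.21, adjusted p = 7.92e-08) and by 2.26 in E171 mice (adjusted p = 5.1e-10), and Gpc2 by 1.1 (adjusted p = 0.00014) and 1.28 (adjusted p = 1.69e-05), while Gpc3 itself did not pass. Gpc4 fell by 0.52 (adjusted p = 9.59e-08) and 0.54 (adjusted p = 3.5e-08). Gpc6 rose by 0.44 (adjusted p = 0.03) and 0.58 (adjusted p = 0.00465), but its sign turned in controls with normexp. Its call was lost with the deposited values and the second brightest probe in both comparisons, with quantile scaling in controls, and with normexp in E171 mice. Gpc5 did not pass (-0.22 and -0.21).

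Afp is the fetal member of the albumin family, of which the 3 others were also measured. Afm, afamin, fell by 0.83 in controls (adjusted p = 1.42e-07) and by 1.01 in E171 mice (adjusted p = 3.54e-09). Alb differed by -0.28 in both, a call lost with quantile scaling and with the deposited values. Gc, the vitamin D-binding protein, differed by -0.22 and -0.21, and its sign turned with those same alternatives. Igf2bp2 fell by 0.57 in controls (adjusted p = 0.046), a call lost under 4 of 9 alternatives, and differed by -0.061 in E171 mice. Sox12 fell by 0.42 in controls (adjusted p = 0.0269), lost under 3 of 9, and differed by -0.17 in E171 mice. Dlk2 fell by 0.27 (adjusted p = 0.0161) and 0.4 (adjusted p = 0.000632).

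**Figure D4:**
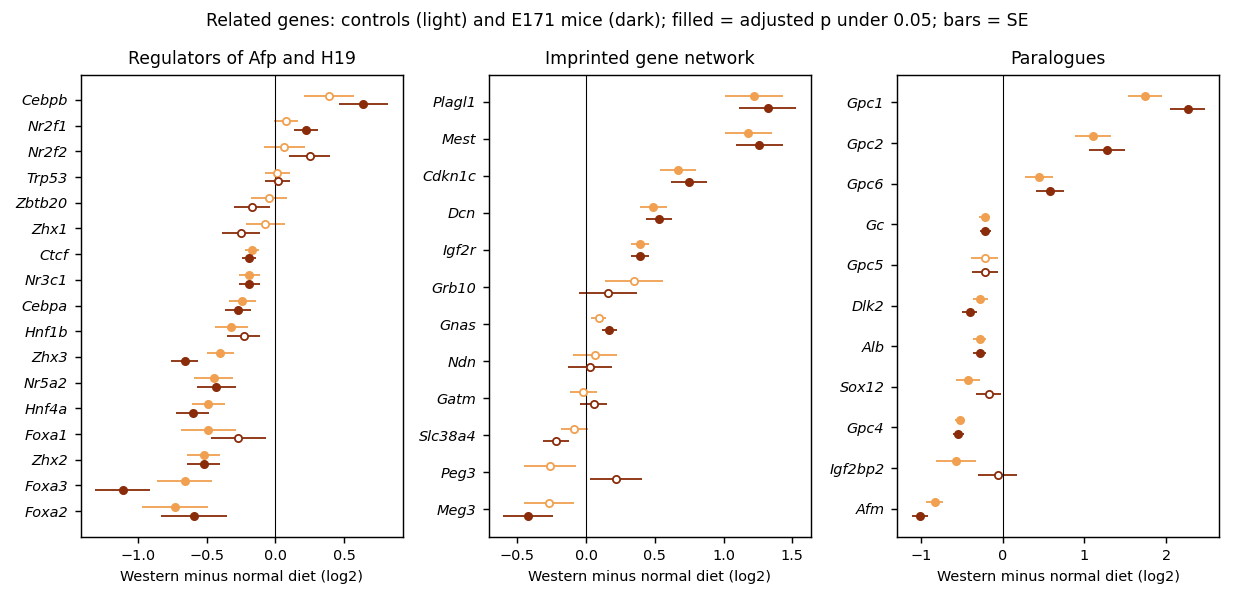
Difference between the Western and the normal diet on the log2 scale for regulators of Afp and H19 reported here, the imprinted network and the paralogues, in controls (light) and E171 mice (dark). Bars are standard errors and filled points have an adjusted p under 0.05. Zhx2 and Foxa3 lie below 0, and Mest and Gpc1 above it, in both.

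Among 22 other tested markers of liver tumours or fetal liver, 13 rose and 5 fell in controls, and 14 rose and 3 fell in E171 mice. Medians were 0.71 and 0.8. All genes gave 18.5% higher and 28.8% lower in controls, and 22.2% and 31% in E171 mice. Spink1, a trypsin inhibitor raised in liver cancer, rose by 3.52 in controls (adjusted p = 5.52e-08) and 2.37 in E171 mice (adjusted p = 2.02e-05). Scd2, a desaturase of the fetal liver, rose by 2.48 (adjusted p = 4.79e-07) and 1.77 (adjusted p = 5.25e-05). Ly6d, a surface protein, rose by 6.46 and 6.12. Tff3, a trefoil peptide, fell by 3.56 in controls and fell by 4.48 in E171 mice.

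Markers of several cell types also differed between the diets. Of 10 bile duct (cholangiocyte) markers tested, 7 rose and 1 fell in controls, and 8 rose and 0 fell in E171 mice. For all genes the shares were 18.5% higher and 28.8% lower in controls, and 22.2% and 31% in E171 mice. Krt23, a keratin, rose by 2.31 (adjusted p = 8.93e-08) and Spp1, osteopontin, which macrophages also make, by 1.43 (adjusted p = 0.000928) in controls. Krt19 (0.61, adjusted p = 0.162) and Sox9 (0.012, adjusted p = 0.958), both defining markers of bile duct cells, did not pass in controls. In E171 mice Krt19 rose by 1.01 (adjusted p = 0.0199), and Sox9 did not pass (0.065, adjusted p = 0.756). The summed level of the 10 markers ranged from 961% to 1840% in normal diet controls, 916% to 1670% in normal diet E171 mice, 1730% to 7250% in Western diet controls and 2060% to 8140% in Western diet E171 mice. Each of the 10 was well above background on 8 of 8 arrays in every group. The sum takes in Spp1 and is weighted towards the brightest probes, so it is not a measure of bile duct cells alone. The part of bile duct cells in the rise of Sox4, Cd24a and H19 was not tested.

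Of 17 genes of dividing cells, 15 rose and 0 fell in each diet comparison, with summed levels of 1260% to 1610%, 1080% to 1440%, 1620% to 3710% and 1620% to 2500% in the same order of groups. Among stellate cell markers 7 of 10 rose and 0 fell in controls (Col1a1 by 3.02, Col3a1 by 2.23). Among Kupffer cell and macrophage markers 7 of 10 rose and 0 fell (Lyz2 by 1.51, Cd68 by 1.44), and among those of lipid-associated macrophages 7 of 9 rose and 1 fell, Gpnmb being at least 51-fold higher. Of 11 hepatocyte markers 10 fell and 0 rose in controls, but the sign of Ttr and Serpina1c turned, and the calls of Alb, Ahsg and Cyp2e1 were lost, with quantile scaling and with the deposited values. Of 8 neutrophil markers 2 rose and 1 fell in controls, and 4 rose and 2 fell in E171 mice. Of 8 T and NK cell markers 3 rose and 2 fell in controls, and 4 and 2 in E171 mice. B cells gave 1 and 1 of 7 in controls and 1 and 0 in E171 mice. Endothelial cells gave 2 and 2 of 10, then 2 and 3, and red cells 0 and 1 of 5, then 0 and 0. Over all genes 47.3% passed in controls and 53.2% in E171 mice. The part of these cell types in the differences of the 9 genes was not tested.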

How the data were processed

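Per the file headers, the deposited scanner files hold linear intensity values of 62976 spots per array, background-corrected by Agilent Feature Extraction 10.10.1.1 per the submitters' processing notes. The authors also deposited log2 values of 36695 probes, with steps not given in the sources used here, which served as an alternative. The column medians were 7.13 in normal diet controls and 7.12 to 7.13 in normal diet E171 mice. On the Western diet they were 7.18 in controls and 7.16 in E171 mice. The medians were thus nearly equal within groups and differed between the diets.

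Log2 of the processed signal minus the array's 75th percentile (175 to 341.7 intensity units) was fitted with limma 3.58.1 in R 4.3.3 (package data.table, version 1.17.8), with 1 mean per group. Control and outlier spots were left out. The brightest of 35777 kept probes stood for a gene. Probe positions are mm9, and names were updated through RefSeq. Correlations used Python 3.11.15, numpy 2.4.6, scipy 1.17.1 and pandas 2.3.3. The scripts were tested on simulated data.

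The members and lists were chosen with earlier results of these data known. The text names the 9 genes, up to 4 called genes of largest difference per related list, all paralogues, Zhx2 and Zbtb20, the 3 most alike genes per member and up to 2 per cell type. Some genes that this rule or the lists give are not reported here. Alternatives were the background correction, scaling, deposited values, probe filter, probe choice, slide or replicate block, variance model, samples in the fit and each array left out.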

Additional observations from a re-analysis of the deposited data

Results flagged for a closer look

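In 6 of 76 groups of 8 mice (19 probes in 4 groups) a single mouse stood apart from the rest, its gap to the next mouse being large for the group's range by Dixon's test at 95%. Chance gives about 1 in 20 such groups. Afp in mouse 4 of the normal diet controls was at 89.4%, against 49.1% in the next mouse. Igf2bp3 probe 2 in mouse 1 of the Western diet controls was at 11.5%, against 2.02%, and was well above background on that array alone. The kept Prom1 probe was low in mouse 6 of the normal diet controls (2.1%, next 3.51%) and in mouse 6 of the Western diet controls (1.65%, next 2.79%), on arrays where it was not well above background. Gpc3 probe 2 in mouse 8 of the Western diet E171 group (1.25%) and Prom1 probe 3 in mouse 3 of the normal diet controls (1.51%) were also apart, both not well above background.

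Some probes too dim for the tests were nevertheless well above background on Western diet arrays, at levels above any normal diet mouse. Only this direction was searched, and dim probes also went the other way. Dlk1 probe 2 reached 8.47% in normal diet controls, against at most 7.66% in Western diet controls and 3.22% in Western diet E171 mice. The 1 array with Igf2 probe 2 well above background was of a normal diet E171 mouse. H19 probe 2 reached 31.0% in Western diet controls and 38.0% in Western diet E171 mice, against at most 3.34% on the normal diet. Prom1 probe 2 reached 6.34% in Western diet controls and 2.39% in Western diet E171 mice, against 2.22% on the normal diet. Prom1 probe 3 reached 2.92% in mouse 3 of the Western diet controls, against 1.51%. Igf2bp3 probe 2, at 11.5%, stood against 2.38% on the normal diet. Mouse 3 of the Western diet controls, with the highest signals of Prom1 probes 2 and 3, also had the highest Sox4 and Cd24a of its group. The kept Prom1 probe reached at most 4.06% in that group, against 4.91% in normal diet controls. Over the 16 Western diet mice its r was 0.37 with Sox4 and 0.305 with Cd24a. Neither passed the permutation test (adjusted p = 0.31 and 0.414).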

How the results depend on the processing

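H19, Sox4, Cd24a and Afp kept their rises in both diet comparisons under every alternative run for them, and without any single array. Of the 8 tested genes, 7 passed between the diets in controls with normexp (4 higher, 3 lower) against 4 in the main analysis. The added calls were Igf2bp3 (-0.21), Dlk1 (-0.22) and Prom1 (-0.19), all dim probes, and Prom1 also passed in E171 mice (-0.16). Dlk1 passed in E171 mice with quantile scaling (-0.48, adjusted p = 0.0498 in limma) and with the deposited values (-0.28, adjusted p = 0.0143 in limma). Leaving out 1 array at a time gave 4 to 5 called members in each diet comparison, and 0 in every E171 comparison and the interaction. Against 5 pairs of genes related across the 16 Western diet mice, 2 passed in the 8 controls alone, 1 of them among the 5. In the 8 E171 mice alone 3 passed, all among the 5. With normexp 7 pairs passed over the 16 mice, 4 of them among the 5. The others joined the dim probes of Igf2bp3, Dlk1 and Prom1 to one another. Among them Igf2bp3 and Prom1 turned from r = -0.51 to 0.674.

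Over all genes 39.2% of the calls between the diets in controls were rises, against 54.4% with the deposited values, 45.5% with quantile scaling and 31.2% with normexp. In E171 mice these were 41.7%, 51.1%, 44.8% and 37.5%. With the replicate number as a block, 4 members passed between the diets in controls and 5 in E171 mice, the added one being Dlk1 (-0.4, adjusted p = 0.0446 in limma), and 0 in the E171 comparisons. The labels do not say that equal numbers mark shared animals or batches. Over 48 same-numbered pairs of arrays the correlation of deviations ran from -0.298 to 0.571, with a median of 0.0683 against -0.0185 for other pairs, and 8 of 32 arrays correlated best with one of their own number.

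Igf2, the second probes of H19, Gpc3 and Dlk1, and 2 probes each of Igf2bp3 and Prom1 were limited by signal over background. Where few arrays of a group were above background, the levels given are signals near background and not firm values. The 8 mice per group limit the precision of the E171 comparisons, whose intervals for H19 span over 2-fold in each direction.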
